A study of Equus caballus with 8 samples.

Results

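Interferon-stimulated genes (ISGs) are the genes that cells switch on when interferon reaches them, and 44 of them are described here in equine BM-MSCs, mesenchymal stem cells from bone marrow, that were grown with or without TGF-β2. The members were chosen by gene symbol, from a list put together with results of these same libraries in view, so their levels and changes are given as a description and without a test of their own. Of the 44 genes, 41 had a row among the 15266 named genes measured. IFIT1, IFIT2 and SP100 had none and were not analysed here.

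RNA-sequencing was performed on BM-MSCs of 4 horses, called D, J, L and W, which were healthy adult Thoroughbreds or Thoroughbred crosses. The marrow of each horse was divided, and 1 part was grown in control medium (untreated) while the other received 1 ng/ml human recombinant TGF-β2, by the labels from first isolation until passage 3 or 4 and by the study's methods for 3 passages, which gave 4 untreated and 4 TGF-β2-treated cultures with 1 poly(A)-selected library each. All cultures were primary cells in low glucose medium with fetal bovine serum and, by the study's methods, 1 ng/ml human recombinant basic fibroblast growth factor. The labels name no interferon given to any of them. Treated and untreated cultures grew apart for several passages, so a change within the cells and a change in which cells grew out cannot be told apart. Each horse has 1 library per condition, and the p-values below rest on the spread between these 4 horses, or between those kept where 1 is left out. That spread is of their levels or, where the model takes out the level of each horse, of their changes.

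Interferons are secreted proteins that cells release when they sense viral nucleic acid, and that T cells and natural killer cells release when activated. Type I interferons bind a receptor built from IFNAR1 and IFNAR2, interferon gamma binds one built from IFNGR1 and IFNGR2, and both receptors pass the signal through Janus kinases to STAT proteins, which enter the nucleus and switch on ISGs. In MSCs, interferon gamma is known for inducing IDO1 and the T-cell attracting chemokines CXCL9, CXCL10 and CXCL11, which belong to the means by which these cells restrain immune responses.

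Values are the authors' normalized read counts, that is reads per gene divided by a size factor for the library. They are not divided by gene length, so levels were compared between libraries and not between genes. The exception is sums over a list, in which the part of a gene is a part of the counts only. Depth ran from 39184554 to 57228675 reads per library, and 3 reads correspond to 2.02 to 3.60 normalized counts, below which a level was not told from 0. This floor covers counting error only. As a check of the labels, SKIL, TGFBI, ACTA2, CTGF and FN1, all known TGF-β targets, were higher in the treated cultures by limma with an adjusted p under 0.05 and a log2 change over 1, which is what is meant by a call below, whereas SMAD7, the feedback inhibitor of the same pathway, was not called and had a log2 change of 0.02. Of the stromal surface markers, ITGB1, CD44, NT5E, ENG and THY1 had at least 1609 normalized counts in every library.

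One library stood apart for these genes before any comparison with treatment. All 41 members with a row had their highest untreated level in the culture of horse J, against 35.3% of all named genes. In 40 of the 41 the untreated J level was more than 2-fold above each of the other 3 untreated libraries, against 5.59% of all named genes, and the exception was TRIM25. In 33 members the difference exceeded 4-fold. The median difference between untreated J and the next highest untreated culture was 2.78 on the log2 scale, from 0.69 for TRIM25 to 6.31 for GBP5. Of the 100 genes with the largest J excess, 14 were members, and of the 500 with the largest, 38. Horse W was next among the untreated cultures in 36 of the 41 and was more than 2-fold above both D and L in 18. Since the members were picked from these data, nothing more is read from these shares, and the results that follow are given for each horse and also without horse J.

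**Figure D1:**
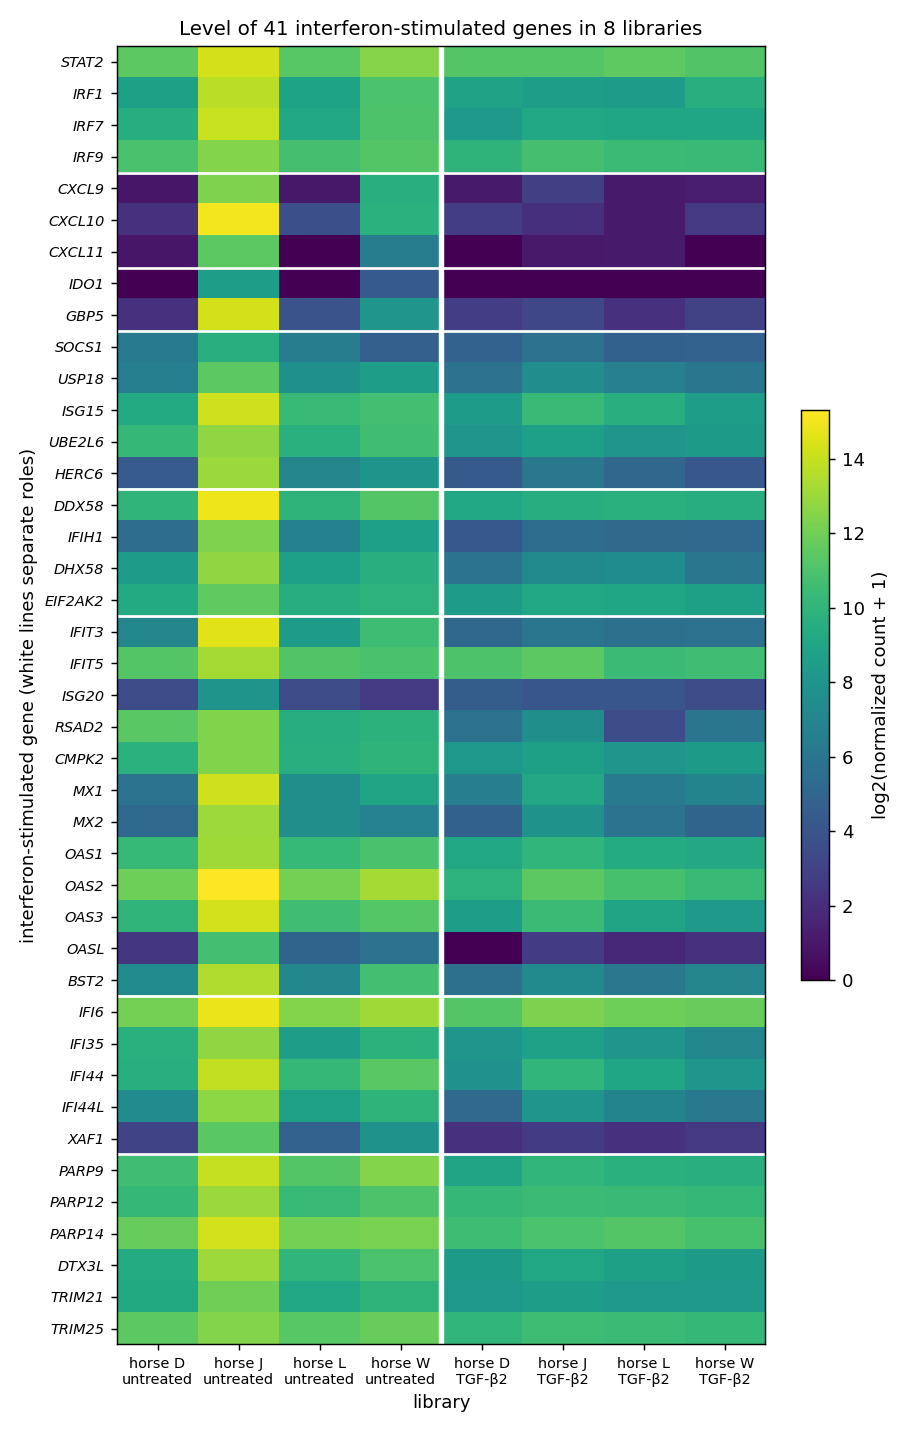
Level of each of the 41 interferon-stimulated genes (rows, grouped by role) in the 8 libraries (columns), as log2(normalized count + 1), with the untreated cultures left of the thick white line. The untreated culture of horse J is the brightest column in all 41 rows, and 7 genes, among them CXCL9 and IDO1, stay under 10 normalized counts in every treated library.

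Treatment went with lower ISG levels in each of the 4 horses, but by very different amounts. In horse J all 41 members were lower in the treated culture, with a median log2 change of -4.01 and a range from -12.97 to -1.69. In horse W, 39 were lower and 2 higher, with a median of -2.58. Horses D and L, whose untreated cultures had the lower ISG levels, also changed. The median was -1.09 in D, where 33 members were lower, 7 higher and 1 at 0 in both libraries, and -1.06 in L, where 35 were lower, 5 higher and 1 at 0 in both. The median over all tested genes was within 0.02 of 0 in every horse.

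A decrease of more than 1 on the log2 scale was seen for 21 members in D (11.9% of all named genes), 41 in J (12.0% of all named genes), 21 in L (9.92%) and 36 in W (12.4%). In both D and L, 14 members were lower by more than 1, whereas 12 stayed within 1 of 0. In all 4 horses 30 members were lower, against 25.7% of all named genes, and 13 were lower by more than 1 in each. The untreated and treated levels did not overlap for 17 members, against 13.9% of all named genes. These members were chosen on this contrast, so nothing is read from the distance to the background.

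**Figure D2:**
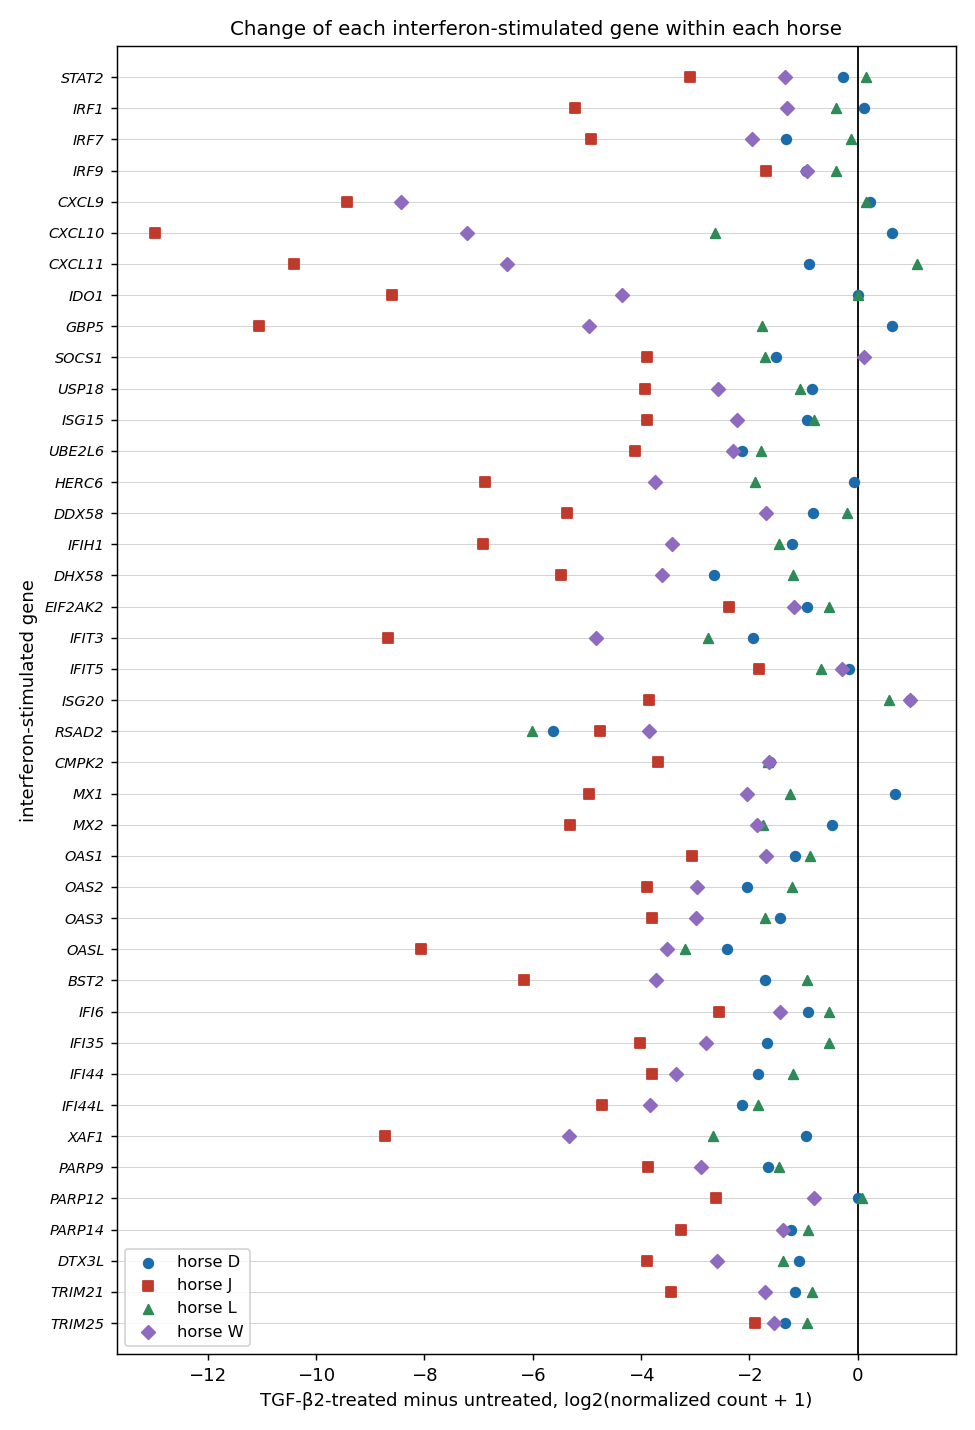
Change of each of the 41 genes within each horse (x axis, TGF-β2-treated minus untreated, log2(normalized count + 1), 1 point per horse). Horse J, the red squares, has the largest decrease in every row but that of RSAD2, while 21 points each of D and of L lie left of -1.

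After treatment the cultures resembled each other more in summed ISG level, which rested mostly on horse J. The summed level of the 41 members ran from 39016 to 481098 normalized counts in the untreated cultures and from 18086 to 31994 in the treated ones. The highest of each was J. In D, L and W the sums were 39016, 41815 and 77084.5 untreated, and 18086, 24195 and 20806 treated. The treated culture of horse J was the highest of the 4 treated cultures in 32 members and more than 2-fold above the other 3 in 8 of them. It was still above the untreated culture of D in 17 members and above that of L in 9.

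Among the transcription factors, STAT2 and IRF9 belong to the ISGF3 complex downstream of the type I receptor. STAT2 was at 2828 normalized counts in untreated D, 20385 in J, 2581 in L and 5849 in W, and at 2352, 2385, 2879 and 2308 in the treated cultures of the same horses. Only J and W were above the treated range, and D and L lay within it. IRF9 was at 1899, 5619, 1788 and 2393 in untreated D, J, L and W and at 979, 1738, 1360 and 1257 after treatment, so that every untreated culture was above every treated one.

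IRF1, a factor that both interferon types induce, followed J and W. It was at 418 in untreated D, 13523 in J, 462 in L and 1965 in W, and at 456, 364, 349 and 797 with TGF-β2, a 37.2-fold difference in J, while in D the treated level was the higher. IRF7, which drives type I interferon genes, went from 750, 16700, 583 and 2049 in D, J, L and W to 300.2, 552, 537 and 529. Its levels did not overlap, although in L the difference was 1.09-fold.

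The chemokine genes showed the widest span, and nearly all of it came from 2 horses. CXCL10 had 33719 normalized counts in untreated J and 859 in untreated W, but 3.48 in D and 12.2 in L, and between 1.15 and 5.96 in the treated cultures. CXCL9 had 5122 in untreated J and 758 in untreated W, with 0.870 and 0.942 in D and L, which is 1 read in each. In the treated cultures CXCL9 was at 1.15 to 6.42. CXCL11 had 2787 in J and 87.3 in W, and at most 1 read in each of the other 6 libraries. Horses D and L thus had next to no chemokine transcript with or without treatment, and no change could be seen in them at this depth except for CXCL10 in L, which had 13 reads untreated and 1 treated. In W, the absence of CXCL11 reads after treatment puts the difference at at least 24.2-fold lower, taking 3 reads as the floor for the library.

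IDO1, the tryptophan-degrading enzyme, was read in untreated J and W alone. It had 388 normalized counts in J and 19.3 in W and no read in the other 6 libraries, so that treatment went with an at least 121-fold lower level in J and an at least 5.35-fold lower one in W. GBP5, a guanylate-binding GTPase of inflammasome control, had 20223 in untreated J, 255 in W, 14.1 in L and 3.48 in D, and 3.45 to 8.56 after treatment. Its J level was 2361-fold above the treated culture of the same horse. For these genes, the 3 chemokine genes included, 2 of 4 untreated cultures carried nearly all of the signal, and none passed the filter of at least 10 normalized counts in at least 4 libraries that the model across genes required.

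Some T-cell markers were read in the same 2 untreated libraries and nowhere else, and others were not. Of a list of 16 T-cell markers, put together after the values had been seen, 9 had a row. CD3D, CD3E and CD3G, the chains of the T-cell receptor complex, had 146, 166 and 78 reads in untreated J and 14, 16 and 11 in untreated W, and no read in any of the other 6 libraries. CD2 and CD6, further T-cell surface proteins, had 87 and 79 reads in untreated J, 6 each in W, and 0 in the other 6 as well. The summed level of the 9 markers was 128 to 670 normalized counts in the untreated cultures, with the highest in J and the next in W, and 61.9 to 101 in the treated ones, where LAT was most of it in every library. The other markers were spread differently. CD247, a signalling chain that natural killer cells also use, was at 60.0, 78.8, 60.3 and 74.1 in untreated D, J, L and W. In the treated cultures CD247 was at 2.38, 7.49, 5.75 and 6.01, so it was lower in every horse, D and L included. LAT was highest in untreated L (93.3), and IL2RG was at 62.6 in untreated J but higher in L (24.5) than in W (20.3). ZAP70 had 111 reads in untreated J and 0 to 3 in each other library. Of the 3 T-cell markers tested, 1 was called lower, against 5.87% of all tested genes. With the horse as a block 2 were, against 7.31%. CD247 reached the level that the filter required in the untreated cultures only. It thus passed the filter through the group where it was high, and the list was made after the values had been seen. Nothing is read from either count. In bulk RNA, fewer cells of a type and less RNA per cell cannot be told apart. The part of T-cell transcripts in the ISG levels was not tested.

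Leukocyte markers as a whole fell into more than one pattern. Of 21 listed, 15 had a row, and their sum ran from 874 to 3573 normalized counts in the untreated and from 646 to 998 in the treated cultures, with CD68, a lysosomal protein that is not confined to leukocytes, making up 2437 of the highest sum. Untreated J was the highest untreated culture in 7 of the 15, against 35.3% of all named genes, and nothing is read from this count. PTPRC, which encodes the pan-leukocyte antigen CD45, was at 1.74, 110, 41.5 and 26.4 in untreated D, J, L and W and at 1.19 to 23.0 in the treated cultures, and CD4, a marker of helper T cells and some myeloid cells, at 7.83, 176, 13.2 and 64.9 untreated and at most 12.6 treated. Of the myeloid markers, CSF1R, SPI1, TYROBP and CD163 had their highest levels in untreated L or W and at most 2 reads each in untreated J. CSF1R, for one, had 147 normalized counts in untreated L and 1.35 in J. Other listed markers were not as low in J. ITGAM was at 20.9 in untreated J and 51.7 in W, FCER1G at 86.9 in J and 92.3 in L, and NKG7 was highest in J (291). The part of leukocyte transcripts in the results was not tested either. FCER1G, an Fc receptor subunit, was the only one of the 10 leukocyte markers tested that was called without the horse term, against 5.87% of all tested genes called lower. Its log2 change was -2.19 (adjusted p = 0.0489, limma), and the call was lost whichever horse was left out. FCER1G reached 10 normalized counts in 4 untreated but only 2 treated libraries, so it passed the filter through the untreated cultures, where it was high. With the horse as a block GZMB, a granule protease, was called lower too (log2 change -1.49, adjusted p = 0.039, limma). In that fit 7.31% of all tested genes were called lower. Of 7 endothelial markers CDH5 and KDR had a row, at up to 40.7 normalized counts. KDR, a receptor of vascular endothelial growth factor, was higher with treatment in 4 of 4 horses, from 1.01 to 14.8 untreated to 15.5 to 40.7 treated. It was called higher (log2 change 2.27, SE 0.64, adjusted p = 0.0362, limma), a call lost without D, without L or without W. KDR reached 10 normalized counts in 4 treated libraries but only 1 untreated one. It thus passed the filter through the group where it was high, and nothing is read from its call.

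**Figure D3:**
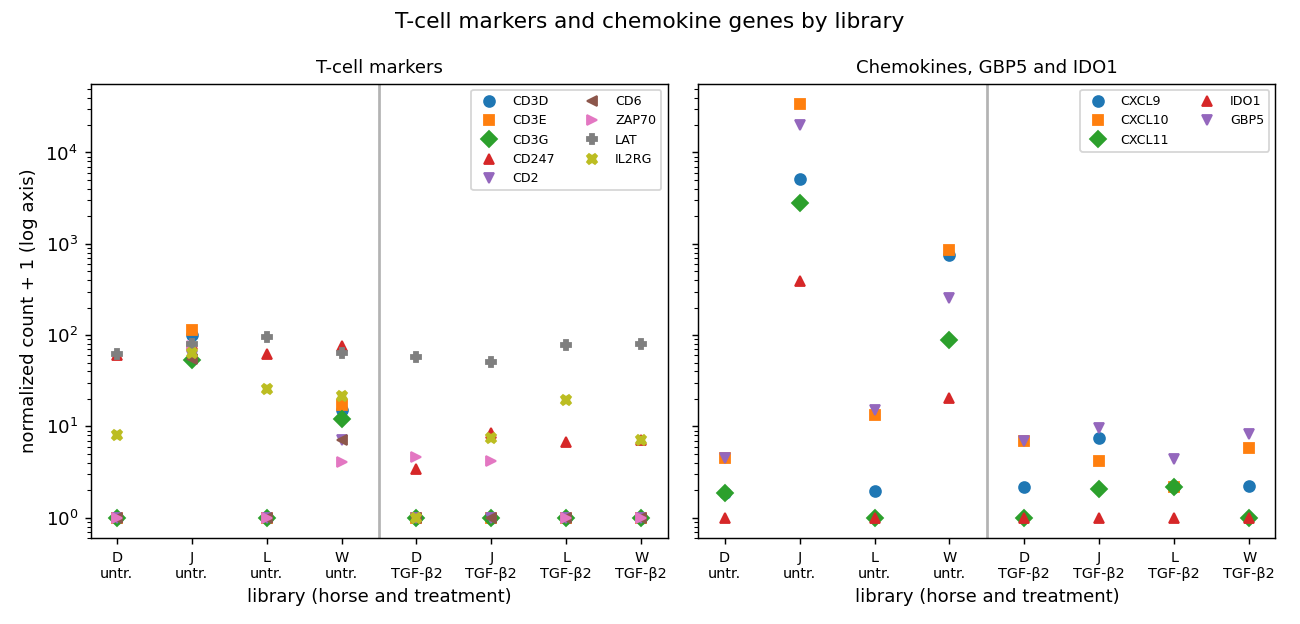
Normalized count + 1 (log axis, 1 point per gene) of 9 T-cell markers (left) and of CXCL9, CXCL10, CXCL11, GBP5 and IDO1 (right) in the 8 libraries, with a grey line between the untreated and treated cultures. CD3D, CD3E and CD3G rise off the floor in untreated J and W, the same libraries in which the 5 genes on the right lie above 15 normalized counts. Other markers differ, with CD247, LAT and IL2RG read in untreated D and L as well. On the right, GBP5 and CXCL10 reach 14.1 and 12.2 in untreated L.

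The brakes of the response and the ISG15 system were lower after treatment in most horses. ISG15 is a ubiquitin-like protein, UBE2L6 the enzyme that conjugates it, HERC6 a ligase of that family and USP18 the protease that removes ISG15 and also damps the type I receptor. UBE2L6 was at 1169 in untreated D, 6901 in J, 857 in L and 1578 in W and at 264, 401, 249 and 320 in the treated cultures, so that the levels did not overlap and the fold was 3.43 in L, the smallest, and 17.2 in J. ISG15 went from 659, 19187, 1344 and 1689 to 344, 1300, 771 and 362, lower in each horse, with the treated J level between those of untreated D and L. USP18 went from 94.8, 2740, 207 and 378 to 52.4, 179, 98.9 and 62.5.

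HERC6 had 20 normalized counts in untreated D and 8280 in J, with 122 in L and 238 in W, and 16.8 to 69.6 after treatment. It was 1.05-fold above its treated level in D and 119-fold in J. SOCS1, which inhibits Janus kinases, was at 79.2, 779, 88.6 and 25.4 in untreated D, J, L and W and at 27.4, 51.4, 26.4 and 27.6 in the treated cultures, lower in D, J and L but 0.918-fold of its treated level in W. Horse W, second in most members, was lowest for this one.

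The cytosolic RNA sensors were lower with TGF-β2 in all 4 horses. DDX58 encodes RIG-I, IFIH1 encodes MDA5, DHX58 encodes their relative LGP2, and EIF2AK2 encodes PKR, a kinase that stops translation when it binds double-stranded RNA. DHX58 was at 356, 7083, 397 and 788 in untreated D, J, L and W and at 56.0, 158, 174 and 63.7 in the treated cultures, from 2.29-fold in L to 44.7-fold in J and without overlap. IFIH1 went from 42.6, 5258, 106 and 396 to 17.9, 42.8, 37.9 and 36.0. DDX58 went from 1021, 30580, 972 and 2357 to 576, 745, 847 and 728, which in L is 1.15-fold. EIF2AK2, at 666, 3050, 757 and 943 untreated, was at 347, 586, 527 and 417 treated. The sensors thus differed in how much the cultures with little ISG transcript changed, with DHX58 and IFIH1 more than 2-fold lower in D and L and the other 2 less.

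RSAD2 departed from the rest of the antiviral effectors. It encodes viperin, a radical enzyme that makes a chain-terminating nucleotide. Its level was 2698 in untreated D, 5402 in J, 727 in L and 918 in W, and 53.6, 200.2, 10.3 and 62.5 after treatment. Here the largest folds were in the cultures with low ISG levels otherwise, 70.3-fold in L and 50.3-fold in D, against 27.0-fold in J and 14.7-fold in W, and untreated J was only 2-fold above untreated D. The highest treated level, 200.2 in J, lay under the lowest untreated one, 727 in L. CMPK2, a mitochondrial nucleotide kinase that supplies the substrate of viperin, was at 880, 5448, 783 and 993 in untreated D, J, L and W and at 287, 421, 248 and 317 treated, which is close to 3-fold in D, L and W (3.06, 3.15 and 3.13) and 12.9-fold in J.

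The oligoadenylate synthetases make the second messenger that activates RNase L. OAS2 was at 3953 in untreated D, 40481 in J, 4350 in L and 9734 in W and at 954, 2741, 1881 and 1248 after treatment, 4.14-fold, 14.8-fold, 2.31-fold and 7.80-fold lower. OAS3 went from 1035, 19309, 1578 and 2424 to 385, 1389, 483 and 306, and OAS1 from 1231, 9053, 1227 and 1920 to 550, 1091, 670 and 597. All 3 were lower in every horse, and for OAS3 the treated J level lay above untreated D. OASL, the relative without that enzyme activity, had 1691 normalized counts in untreated J, 51.7 in W, 29.2 in L and 4.35 in D and at most 5.35 in the treated cultures.

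IFIT3, which binds IFIT proteins that sense foreign RNA ends, was at 131, 25618, 342 and 1470 in untreated D, J, L and W and at 33.4, 62.1, 49.4 and 50.5 in the treated cultures. Its treated levels were within a 2-fold range although the untreated ones spanned 196-fold, and the decrease was 413-fold in J, 29.1-fold in W, 6.92-fold in L and 3.91-fold in D. BST2, or tetherin, which holds budding virions on the cell, went from 165, 11404, 135 and 1666 to 50, 158, 70.1 and 125. IFIT5, a relative of IFIT3, stood out in untreated J only, at 2362, 9822, 2231 and 1907 untreated and 2128, 2797, 1394 and 1555 treated.

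The MX GTPases, which trap viral nucleocapsids, were high in J on both sides. MX1 was at 56.6, 18919, 189 and 485 in untreated D, J, L and W and at 91.7, 605, 79.3 and 117 treated, so that D was higher with treatment and treated J was above 3 of the 4 untreated cultures. MX2 went from 36.5, 8728, 188 and 112 to 26.2, 219, 55.2 and 30.0. ISG20, an exonuclease, had 10.4, 246, 10.4 and 5.07 in untreated D, J, L and W and 21.4, 16.1, 16.1 and 10.8 in the treated cultures. It was thus higher with treatment in D, L and W and lower in J only, and its fitted log2 change over the 4 horses, -0.33 with an SE of 1.06, became 0.84 without J.

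The other induced genes were lower in all 4 horses. IFI44L was at 165, 6566, 435 and 1002 in untreated D, J, L and W and at 36.9, 248, 121 and 69.7 treated, which is 4.48-fold, 26.4-fold, 3.61-fold and 14.4-fold lower. IFI44 went from 772, 15062, 1151 and 2640 to 216, 1080, 500.1 and 257. IFI6, a mitochondrial and endoplasmic reticulum protein, went from 4401, 29648, 5574 and 9049 to 2345, 5016, 3870 and 3370. In these 3 genes the treated J level overlapped the untreated D or L level. IFI35 went from 851, 7052, 377 and 900 to 266, 437, 261 and 129, and XAF1, a proapoptotic partner of XIAP, from 7.83, 2692, 27.3 and 232 to 3.57, 5.35, 3.45 and 4.81.

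Of the PARP and TRIM genes, TRIM25, the ubiquitin ligase of the RIG-I pathway, was the most even member. It was at 2782, 5562, 2604 and 3446 in untreated D, J, L and W and at 1098, 1502, 1369 and 1188 treated, from 1.90-fold in L to 3.70-fold in J. PARP14, an ADP-ribosyltransferase, went from 3455, 19259, 4355 and 4845 to 1482, 2015, 2323 and 1861. PARP9 and DTX3L form a complex that modifies ubiquitin. PARP9 went from 1539, 15781, 2328 and 5606 to 491, 1082, 854 and 759, and DTX3L from 686, 8703, 1086 and 1993 to 323, 583, 417 and 328. In all 4 genes the untreated and treated levels did not overlap. TRIM21, an antibody receptor of the cytosol, was without overlap too, at 545 to 4029 untreated and 286 to 370 treated. PARP12 was the exception of the group, at 1149, 8297, 1250 and 2068 untreated and 1153, 1359, 1319 and 1181 treated, with no decrease in D or L.

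In the limma model across 14907 genes, 34 members could be fitted, and 8 were called lower, against 5.87% of all tested genes called lower. They were UBE2L6, DHX58, RSAD2, CMPK2, OAS2, PARP9, PARP14 and TRIM25, with log2 changes from -5.06 for RSAD2 (SE 0.93) to -1.42 for TRIM25 (SE 0.24). All 8 were lower in each of the 4 horses. No member was called higher, against 5.59% of all tested genes. With an unadjusted p under 0.05 there were 21 members lower and 0 higher, against 18.2% and 18.4% of all tested genes, and nothing is read from either, since the members were chosen on this contrast. With the horse as a block, which takes out the level of each horse, 21 were called lower, against 7.31% of all tested genes. The 13 added were IFIT3, IFI6, ISG15, IFI44, IFI44L, USP18, TRIM21, OAS3, OAS1, IFI35, EIF2AK2, DTX3L and BST2. The median fitted log2 change over all 41 members was -2.25, against 0.01 over all tested genes.

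The count with the block did not rest on horse J. Without it, and with the horse as a block, 21 members were called lower, against 8.88% of all tested genes, of which 19 were among the 21 called with all horses. IFI6 and EIF2AK2 were lost and IFIH1 and MX2 gained. The median change of the 41 members without J was -1.64. In the model without a block 1 member was called lower without D (2.40% of all tested genes), 3 without L (4.35%), 1 without W (2.76%) and 16 without J (6.80%). With the block, the corresponding counts were 9 without D (3.95% of all tested genes), 19 without L (6.43%) and 3 without W (3.60%).

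The receptors and kinases ahead of the ISGs were taken from a list of pathway genes that are not members. IFNGR2, the signalling chain of the interferon gamma receptor, fell in all 4 horses, from 2568, 2667, 2102 and 3138 normalized counts in untreated D, J, L and W to 572, 863, 492 and 937. This is a log2 change of -1.91 (SE 0.23, adjusted p = 0.0016, limma), which was called whichever horse was left out, and untreated J did not stand apart. IFNGR1, the chain that binds the ligand, was at 1730 to 2439 untreated and 1899 to 1970 treated, with a log2 change of -0.06 (adjusted p = 0.744). The 2 chains of one receptor therefore gave different calls, but the difference between them was not tested.

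IFNAR2 fell as well, from 1269, 2159, 1476 and 1380 to 460, 957, 387 and 566 (log2 change -1.46, SE 0.29, adjusted p = 0.0103), a call that was lost without D and without W. IFNAR1 was at 3484 to 5154 untreated and at 2910, 5897, 2808 and 2955 in treated D, J, L and W (adjusted p = 0.468), lower in 3 horses and higher in J. Of the ligands, IFNB1 and IFNG had no row and were not analysed here. In the list of ligands and receptors, 6 of 13 genes had a row. Of these 2 were called lower and 0 higher, against 5.87% and 5.59% of all tested genes. IFNLR1, a chain of the type III interferon receptor, went the other way in all 4 horses, from 555 to 653 untreated to 846 to 921 treated (log2 change 0.55, adjusted p = 0.0076), too small for a call, and IL10RB had a log2 change of 0.21 (adjusted p = 0.43).

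JAK2, a kinase of the interferon gamma receptor, fell from 2946, 8520, 3911 and 4303 to 1741, 1652, 1524 and 1600 (log2 change -1.48, SE 0.28, adjusted p = 0.0092), with no overlap, and the call was lost without W. JAK1, which serves both receptors, had a log2 change of -0.37 (adjusted p = 0.0167), too small for a call, and TYK2 one of -0.30 (adjusted p = 0.082). SOCS3, a feedback inhibitor that cytokines of the IL-6 family induce, fell from 4825 to 8940 untreated to 1134 to 3407 treated (log2 change -1.85, adjusted p = 0.0079). That call was lost without D and without W. Of 17 signalling genes tested, JAK2 and SOCS3 were the 2 called, both lower, against 5.87% of all tested genes called lower.

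**Figure D4:**
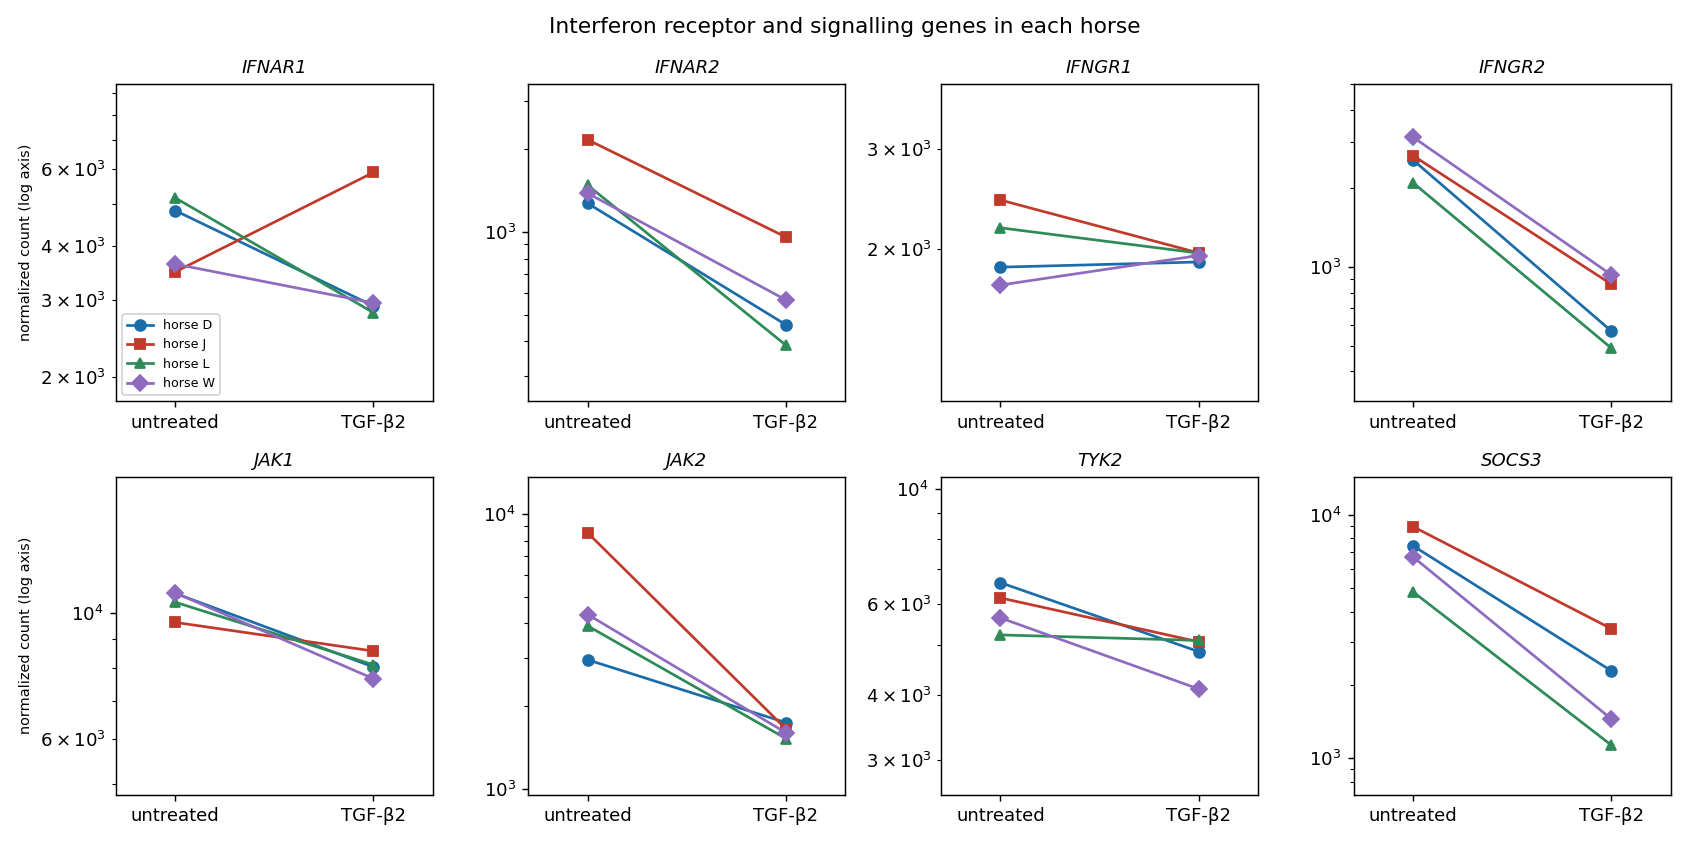
Normalized counts (log axis, scaled separately in each panel) of IFNAR1, IFNAR2, IFNGR1, IFNGR2, JAK1, JAK2, TYK2 and SOCS3 in untreated and TGF-β2-treated cultures, with a line joining the cultures of each horse. IFNGR2 falls along 4 near-parallel lines, with a log2 change of -1.91, whereas IFNAR1 rises in J and falls in the other 3 horses.

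Other pathway genes, too, were mostly highest in untreated J and lower after treatment where called. Of 127 genes in the 4 lists of ligands and receptors, signalling, nucleic acid sensing and further ISGs, 100 had a row and 93 were tested. Of these 15 were called lower and 1 higher, against 5.87% and 5.59% of all tested genes. With the horse as a block the counts were 19 and 1, against 7.31% of all tested genes called lower. In that fit 1018 of all 14907 tested genes were called higher. Untreated J was the highest untreated culture in 75 of the 100 with a row, against 35.3% of all named genes. Without J and with the block the counts were 22 lower and 3 higher, against 8.88% of all tested genes called lower. There, 1162 of all 14918 tested genes were called higher.

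Among the sensing genes, ZC3HAV1, an antiviral protein that binds CpG-rich RNA, fell from 1449 to 4303 normalized counts to 283 to 944 (log2 change -2.06, adjusted p = 0.0133). SAMHD1, which degrades deoxynucleotides, was the single gene called higher, from 197, 259, 613 and 193 in untreated D, J, L and W to 643, 674, 1016 and 896 (log2 change 1.51, SE 0.37, adjusted p = 0.0225). It was higher in 4 of 4 horses, and in the model without a block the call was lost without D, without J or without W.

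Of 52 further ISGs tested, 10 were called lower and 0 higher, against 5.87% and 5.59% of all tested genes. SAMD9L, an antiviral and antiproliferative protein, had the largest change, from 270, 15183, 644 and 1182 to 14.3, 51.4, 80.5 and 36.0 (log2 change -5.08, SE 1.15, adjusted p = 0.0166). IFITM5 fell from 350 to 631 untreated to 11.5 to 34.3 treated (log2 change -4.30, SE 0.35, adjusted p = 0.00033) and was called whichever horse was left out, but despite its name it is known as a bone-forming cell protein and not for induction by interferon. Also called were LGALS3BP (log2 change -3.48), LAMP3 (-4.20), DDX60L (-2.81), PLSCR1 (-2.55), RNF213 (-2.13), IFI27 (-2.08), TRANK1 (-1.90) and SLFN5 (-1.87), with adjusted p from 0.0094 to 0.0499 (limma). LAMP3 reached 10 normalized counts in 4 untreated but only 1 treated library. It thus passed the filter through the untreated cultures, where it was high, and nothing is read from its call. With the horse as a block DDX60, TNFSF10, TRIM34 and LY6E were added. Without horse W, IFNGR2 and IFITM5 were the 2 of the 15 pathway genes still called lower (2.76% of all tested genes). Without D 5 were (2.40% of all tested genes), with JAK2, PLSCR1 and SAMD9L beside them. With the block these counts were 9 and 16 genes called lower, against 3.60% and 3.95% of all tested genes.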

How the data were processed

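Per the labels and methods, reads passed through Trimmomatic 0.36 and STAR 2.5.2b (genome EquCab 3.0), and featureCounts of Subread 1.5.2 took the unique hits of each gene. The authors deposited DESeq2-normalized counts, a signal that is never negative and is not divided by gene length. Whole reads were recovered from the steps of the low values (100% of values whole within 0.05 reads). Of 15267 rows, 1 without a gene name was left out.

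Members and lists were chosen with earlier results of these data known. Named are every member with a row, the interferon ligands, receptors and kinases, every gene of the pathway lists called with or without the block, and the TGF-β check, apart from items that are not reported here. The T-cell list and the fits that leave out a horse with the block were added after the values were seen. The main test was limma 3.58.1 (R 4.3.3, trended eBayes), run on log2(normalized count + 1), a scale that understates the change of low genes. A gene entered with 10 or more normalized counts in 4 or more of the 8 libraries. A call needed a Benjamini-Hochberg adjusted p below 0.05 together with a log2 change above 1 in size. No horse term was used, since the methods name none. The labels pair the cultures by horse, and deviations from the group means correlated at 0.39 to 0.61 within every horse, so counts with the block are given beside those without it. Alternatives were other pseudocounts (0.5 and 5), filters and scalings, DESeq2 1.42.0, edgeR 4.0.16 and each horse left out (10 or more normalized counts in 3 or more libraries). The fits were run on simulated data with the same spread for every gene, no difference between horses and changes only in well-counted genes. That run does not cover differences between horses such as those seen here. Promoter sequences were not used here, and no coordinates are given.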

Additional observations from a re-analysis of the deposited data

Results flagged for a closer look

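Among 145 groups of 4 libraries over 73 genes, 10 held a culture set apart from the other 3 on the log2 scale. The test used takes the gap as a share of the range, and chance passes it in about 1 group in 20. A culture can thus be flagged at a small distance when the other 3 lie close together. GBP5, 79.4-fold higher in untreated J than in any other untreated culture, was not flagged. Of the 10 flagged, 8 were in horse J. The untreated culture of J was flagged as above the rest for IFIT5 (9822 normalized counts), ISG20 (246) and CMPK2 (5448). The treated culture of J was flagged as above the other treated ones for CXCL9 (6.42, which is 6 reads), SOCS1 (51.4), IFNAR1 (5897), TNFSF10 (87.8) and SKIL (3701). For SKIL the distance was small, with 3344 to 3355 in the other treated cultures. The remaining 2 were STAT2, highest in treated L (2879), and IRF7, lowest in treated D (300.2).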

How the results depend on the processing

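Members called lower without the horse term numbered 8, and 18 with scaling to the total, which moved the median of all genes to -0.30 and the share of higher calls among all calls from 48.8% to 27.6%, 20 with DESeq2, 25 with DESeq2 and the horse, 15 with edgeR, and 1 to 16 with a horse left out. With the paired model (the replicate block), 21 were called with all horses, 21 without J, 19 without L, 9 without D and 3 without W. Lower calls over all 14907 tested genes rose as well, from 875 to 1538 with total scaling and 1116 with DESeq2. They were 1231 with DESeq2 and the horse and 904 with edgeR. Other pathway genes called lower numbered 15, and 25 with total scaling, 32 with DESeq2, 28 with DESeq2 and the horse, 2 to 18 with a horse left out and 9 without W with the block; those called higher numbered 1, and 0 to 2 with a horse left out, 0 without D and 3 without J with the block. Over all genes, 834 were called higher and 875 lower, with 1538 lower under total scaling, 360 to 922 higher and 358 to 1015 lower with a horse left out, 1324 lower without J with the block, and 549 higher and 536 lower without W with the block. The cause was not tested. With a horse left out, with or without the block, the log2 change ran from -0.77 to 0.84 for ISG20, from -0.14 to 0.018 for IFNGR1 (both above 0 without J) and from -0.14 without J, over -0.060 without D, to 0.15 without W for SMAD7, which was at -0.29 with total scaling. The median of the members kept its sign in every setting. Depth limits CXCL9, CXCL11 and IDO1 in D and L, which had at most 1 read.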

Other observations

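The NF-κB list, a neighbouring arm of innate signalling, moved in both directions. Of 19 genes tested, REL and CXCL2 rose (log2 change 1.65 and 1.89, adjusted p = 0.0016 and 0.0467, limma), while NFKBIZ, RELB and CXCL1 fell (-1.77, -1.11 and -2.42, adjusted p = 0.0021, 0.0241 and 0.0457), while 5.59% of all tested genes were called higher and 5.87% lower. REL and NFKBIZ were called whichever horse was left out. RELB was lost in each of these fits, CXCL1 without D or W, and CXCL2 without D, L or W. REL, a transcription factor subunit, was at 446 to 703 normalized counts in the untreated and at 1423 to 2276 in the treated cultures, higher in 4 of 4 horses. With the horse as a block NFKBIA and NFKBIE, inhibitors of the pathway, were called lower as well, against 7.31% of all tested genes. Untreated J was the highest untreated culture in 15 of the 19 genes, against 35.3% of all named genes. THY1, a stromal surface protein, also fell, from 24238 to 199815 untreated to 7344 to 37850 treated (log2 change -2.21, adjusted p = 0.0494), a call lost without D, L or W.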
